A study of Mus musculus with 20 samples.

Results

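The genes described here carry a new secretory or membrane protein through the first steps of its life, from entry into the endoplasmic reticulum (ER) to departure for the Golgi. They were taken by gene symbol: the signal recognition particle (SRP), the SEC61 translocon, signal peptidase, oligosaccharyltransferase, the calnexin cycle, the COPII coat and its cargo receptors. The list was drawn up with earlier results of these data known. All 45 genes on this list were present in the deposited tables, among 19368 genes listed for the oxygen-induced retinopathy (OIR) retinas and 19102 listed for the injected retinas. All 45 passed the filter on low values, a mean above 0.1 FPKM (fragments scaled by transcript length and by the number of mapped fragments), in both experiments.

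Whole retinas of C57BL/6J mice were profiled by bulk RNA-Seq, with 20 libraries in 4 groups of 5. The OIR groups were pups of both sexes, *Atf6*+/+ or *Atf6*-/-, that breathed 75% oxygen between P7 and P12 together with their nursing mothers and then room air until P17, when the retinas were taken. The *Atf6*-/- allele, which carries a stop codon in exon IV, is present in the whole body, so no cell type is singled out. The injected groups were *Atf6*+/+ mice that had no oxygen treatment and received 1 μL into the vitreous of both eyes at P30, either 10 μM Ceapin-A7 or saline (the PBS group), and their retinas were taken the next day. Both solutions held dimethyl sulfoxide: the labels give the same range for the injected groups, 0.05 to 0.1%, whereas the methods of the study give a lower share for Ceapin-A7 than for saline, so the solvent may have differed between them. Ceapin-A7 is a small molecule that blocks ATF6 activation. Per the labels, lens and cornea were removed before extraction, but lens RNA was present in part of the libraries. The sample labels do not say whether the 5 libraries of a group came from 5 animals, so p-values measure the spread between these libraries.

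Proteins with a signal sequence are brought to the ER membrane by SRP and its receptor and threaded through the SEC61 channel, assisted by the translocon-associated protein (TRAP) complex. Signal peptidase cuts off the signal sequence, oligosaccharyltransferase attaches a preassembled glycan to asparagines, glucosidases trim it, and calnexin holds the glycoprotein while it folds. Folded cargo is then packed into COPII vesicles, built from the SAR1 GTPase, the inner coat of SEC23 and SEC24 and the outer cage of SEC13 and SEC31. Rod photoreceptors send large amounts of rhodopsin, a glycoprotein, along this route each day. ATF6 is itself an ER membrane protein that leaves in COPII vesicles when unfolded proteins accumulate, is cleaved in the Golgi and then activates genes of ER folding and transport.

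The libraries summed to between 410599 and 456250 FPKM, and the 45 genes held between 0.366% and 0.459% of that sum. These sums are not a depth. Relative depth, read from the steps between low values, was 1 in all libraries but *Atf6*-/- replicate 4 (0.925), Ceapin-A7 replicate 1 (0.941) and Ceapin-A7 replicate 3 (0.688). The amount of *Atf6* RNA did not separate the genotypes, at 14.9 ± 0.618 FPKM (SD, n = 5) in *Atf6*+/+ and 15.2 ± 1.51 FPKM (SD, n = 5) in *Atf6*-/- retinas. The predicted gene *Gm29733*, which overlaps *Atf6*, did separate them, with 3.12 to 6.89 FPKM in the *Atf6*-/- libraries and at most 0.21 FPKM in the *Atf6*+/+ libraries. Rod markers were abundant in every library, with 8 markers summing to between 13671 and 20620 FPKM. Markers of lens fibre cells, 12 in all, summed to 9.79 to 601 FPKM in *Atf6*+/+, 6.11 to 10.1 in *Atf6*-/-, 8.66 to 4325 in PBS and 89.0 to 7718 FPKM in Ceapin-A7 libraries. Of the OIR libraries, *Atf6*+/+ replicate 4 and *Atf6*-/- replicate 5 stood farthest from the rest of their groups, with limma array weights of 0.345 and 0.346 where an average library has 1. Of the injected libraries, PBS replicates 4 and 5 had the lowest rod marker sums, 14588 and 13671 FPKM. In whole retinas, fewer cells of a type and less RNA per cell cannot be told apart.

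Every step of the route was expressed in all 20 libraries. The mean over all libraries ran from 3.74 FPKM for *Sec24d*, a SEC24 cargo adaptor, to 150 FPKM for *Dad1*, a small subunit of oligosaccharyltransferase, with a median gene at 37.6 FPKM. Only *Dad1* and *Ssr2*, the beta subunit of TRAP, lay above 100 FPKM, and 4 genes lay below 10 FPKM: *Sec24d*, *Sec24a*, *Stt3a* and *Spcs3*. *Sec24a* encodes another cargo adaptor, *Stt3a* a catalytic subunit of oligosaccharyltransferase and *Spcs3* a subunit of signal peptidase. Summed over the 45 genes, the level was 1673 ± 121 FPKM in *Atf6*+/+ OIR, 1742 ± 78.4 in *Atf6*-/- OIR, 1862 ± 37.4 in PBS and 1882 ± 45.4 in Ceapin-A7 retinas (SD, n = 5 each).

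**Figure D1:**
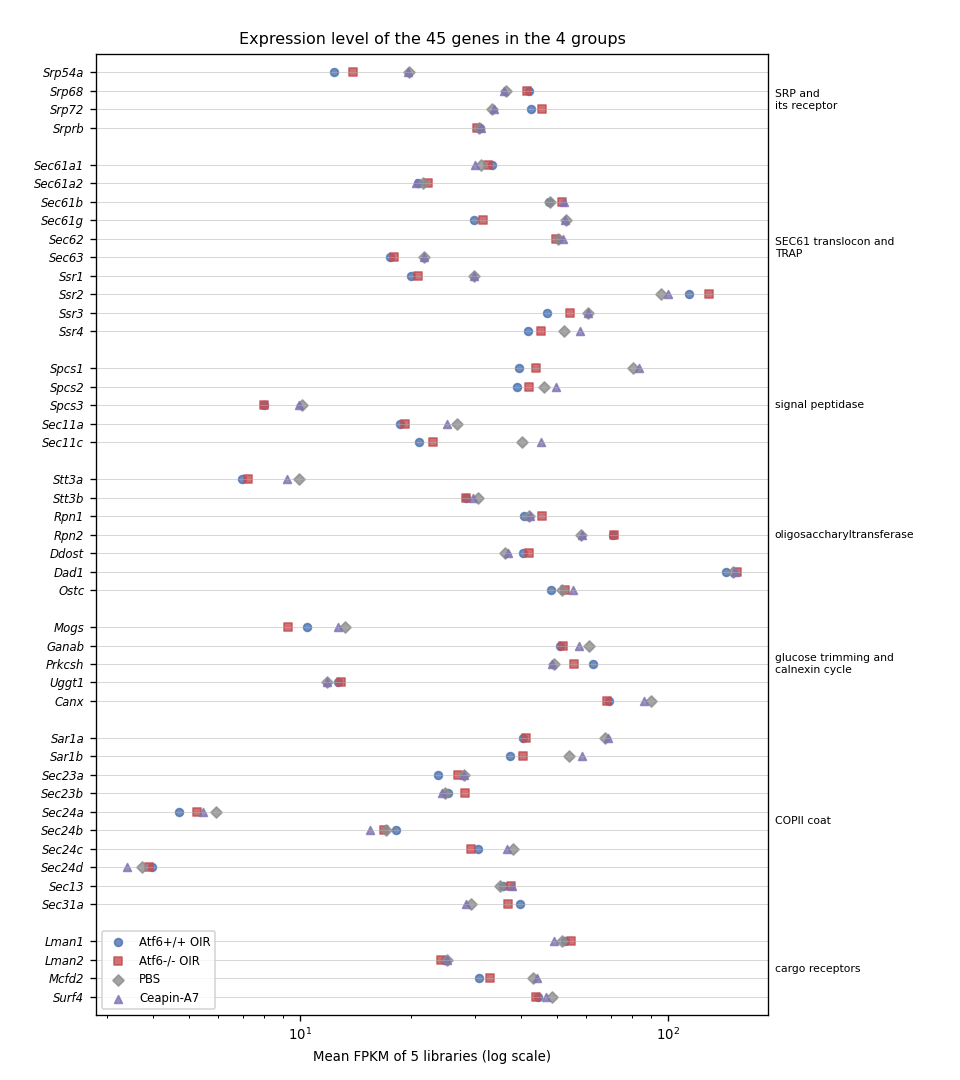
Mean FPKM of the 45 genes, arranged by their step in the route, in *Atf6*+/+ OIR (circles), *Atf6*-/- OIR (squares), PBS (diamonds) and Ceapin-A7 (triangles) retinas, on a log axis. For most genes the marks of an experiment's control and treated groups lie close together, and *Spcs1*, *Sec11c*, *Sec61g* and *Sar1a* show the widest gap between the P17 and the P30 groups.

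The control groups of the experiments differ in age and in treatment and stand in separate tables, so their levels are given side by side without a test. Of the 45 genes, 30 had the higher mean in PBS retinas at P30 and 15 in *Atf6*+/+ OIR retinas at P17. In 18 genes every PBS library lay above every *Atf6*+/+ OIR library, and in 6 genes every PBS library lay below. These counts rest on FPKM as deposited. The shares over all genes were not taken, so the counts cannot be called particular to this route. *Spcs1*, a small signal peptidase subunit, was at 39.4 ± 6.23 FPKM in OIR and 80.5 ± 5.71 FPKM in PBS retinas, a ratio of 2.04. *Sec11c*, a catalytic subunit of signal peptidase, was at 21.0 ± 3.52 and 40.2 ± 4.50 FPKM, a ratio of 1.91. The same order was found for *Sec61g*, the gamma subunit of the SEC61 channel (29.7 ± 5.86 and 52.8 ± 4.27 FPKM), and for *Sar1a*, which encodes a COPII GTPase (40.4 ± 4.05 and 67.5 ± 2.89 FPKM). At the other end were *Sec31a*, the outer cage of COPII (39.5 ± 3.18 and 29.2 ± 1.38 FPKM), and *Prkcsh*, the beta subunit of glucosidase II (62.5 ± 2.86 and 48.9 ± 2.82 FPKM; SD, n = 5 throughout).

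The first comparison asked whether loss of ATF6 altered these genes in OIR retinas. No gene of the route passed the adjusted threshold, but more had the higher mean in *Atf6*-/- retinas than the lower. Their log2 fold changes ran from -0.17 for *Prkcsh* to 0.22 for *Ssr3*, the gamma subunit of TRAP. Of the 45 genes, 34 had a log2 fold change above 0 and 11 below, where 50.7% of all genes tested lay above 0 and 49.3% below. Their median was 0.08, against 0.00 over all 15704 genes tested. At an adjusted p under 0.05 (limma, Benjamini-Hochberg over all genes tested) 0 of the 45 genes were called, and the lowest adjusted p was 0.358, where 0.0318% of all genes were called. With the unadjusted threshold that the study applied, p of 0.05 or less, 6 of the 45 genes, 13.3%, were called, where 12.7% of all genes were called. That share of called genes is close to the background. All 6 were higher in *Atf6*-/- retinas, where 6.94% of all genes were called higher and 5.81% lower. On rescaled values, the libraries of the 2 genotypes overlapped in all 45 genes, where 1.8% of all genes had no overlap.

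**Figure D2:**
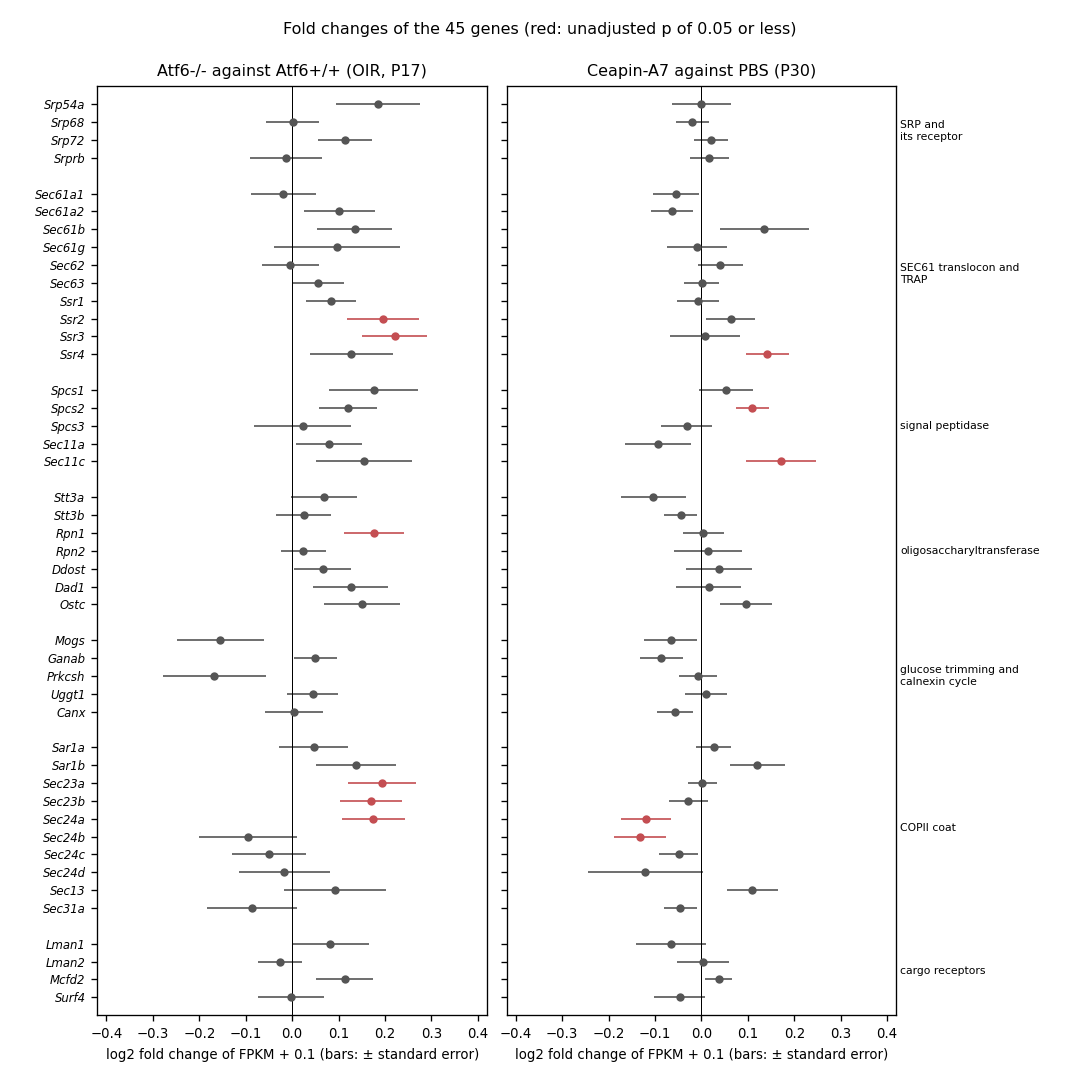
Log2 fold changes of the 45 genes with their standard errors, *Atf6*-/- against *Atf6*+/+ in OIR (left) and Ceapin-A7 against PBS (right), with genes at an unadjusted p of 0.05 or less in red. In OIR 34 of the 45 points lie right of 0 and all 6 red points are among them, while after Ceapin-A7 the points lie on both sides, 23 right and 22 left of 0 (15 and 30 without PBS replicate 5).

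At the stage of entry into the ER, the TRAP complex held 2 of the called genes. *Ssr3* (NCBI gene 67437) was at 48.18, 43.71, 45.49, 54.51 and 43.29 FPKM in the 5 control libraries, given in the order of their replicate numbers here and below. The knockout libraries were at 57.01, 55.01, 52.51, 59.45 and 46.85 FPKM. In the deposited FPKM the groups overlapped, because *Atf6*+/+ replicate 4 was higher than the other controls and *Atf6*-/- replicate 5 lower than the other knockouts. After rescaling between libraries, 4 controls lay below every knockout library. The log2 fold change was 0.22 (standard error 0.07, unadjusted p = 0.0081, adjusted p = 0.358 from limma). *Ssr2* (NCBI gene 66256), which pairs with the alpha subunit in TRAP, was at 114.19, 102.71, 113.46, 137.54 and 104 FPKM in *Atf6*+/+ and at 136.11, 143.2, 119.41, 131.08 and 115.8 FPKM in *Atf6*-/- retinas. All controls but replicate 4 lay below every knockout library. In the deposited FPKM, *Atf6*+/+ replicate 4 lay above all knockout libraries but replicate 2, and after rescaling 2 knockout libraries lay above all controls. The log2 fold change of *Ssr2* was 0.20 (standard error 0.08, unadjusted p = 0.0257, adjusted p = 0.364 from limma).

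The other genes of the translocon and TRAP had log2 fold changes of -0.02 to 0.13, and 8 of the 10 were above 0. The channel subunit *Sec61a1* was at -0.02, its paralogue *Sec61a2* at 0.10, and *Sec61b* and *Sec61g*, the small channel subunits, at 0.13 and 0.10. Of the 4 genes of SRP and its receptor, *Srp54a*, the GTPase that binds the signal sequence, had the largest value, 0.19 (standard error 0.09, unadjusted p = 0.0607, adjusted p = 0.409 from limma). Mouse *Srp54a* has near-identical copies, *Srp54b* and *Srp54c*, among which reads may be split, so its level is uncertain. All 5 signal peptidase genes lay above 0, with a median of 0.12 and *Spcs1* at 0.18 (standard error 0.10, unadjusted p = 0.0925 from limma), and none of them was called.

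Before the GC correction given below, all 7 oligosaccharyltransferase genes lay above 0 as well, with a median of 0.07, and 1 of them was called. *Rpn1* (NCBI gene 103963), ribophorin I, which presents substrates to the catalytic subunits, was at 37.8, 39.52, 44.08, 45.7 and 36.8 FPKM in *Atf6*+/+ and at 48.97, 47.67, 44.41, 42.55 and 43.45 FPKM in *Atf6*-/- retinas. In the deposited FPKM, *Atf6*-/- replicates 1 and 2 lay above all controls, while replicates 4 and 5 lay below *Atf6*+/+ replicates 3 and 4. After rescaling between libraries, 4 knockout libraries lay above all controls. The log2 fold change of *Rpn1* was 0.18 (standard error 0.06, unadjusted p = 0.0187, adjusted p = 0.362 from limma). *Ostc*, a subunit that joins the complex to the translocon, was at 0.15, *Dad1* at 0.13, and the catalytic subunits *Stt3a* and *Stt3b* at 0.07 and 0.02.

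The genes of glucose trimming and the calnexin cycle had a median of 0.00. *Prkcsh* had the lowest value of the 45 genes, -0.17 (standard error 0.11, unadjusted p = 0.155 from limma). It was at 62.01, 62.92, 65.48, 57.94 and 64.11 FPKM in *Atf6*+/+ and at 51.17, 54.55, 56.37, 45.04 and 70.3 FPKM in *Atf6*-/- retinas. In the deposited FPKM all knockout libraries but replicate 5 lay below every control, and *Atf6*-/- replicate 5 lay above all of them. After rescaling, 3 knockout libraries lay below every control. *Mogs*, glucosidase I, which removes the outermost glucose, was at -0.15 (standard error 0.09, unadjusted p = 0.125 from limma). *Ganab*, the catalytic subunit of glucosidase II, *Uggt1*, the sensor that returns unfolded glycoproteins to calnexin, and *Canx*, calnexin, were at 0.05, 0.04 and 0.00.

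The COPII coat held 3 of the called genes, all in its inner layer. *Sec23a* (NCBI gene 20334), which activates the SAR1 GTPase, was at 23.53, 23.54, 22.4, 26.47 and 22.47 FPKM in *Atf6*+/+ and at 28.98, 25.78, 27.38, 29.83 and 22.31 FPKM in *Atf6*-/- retinas. In the deposited FPKM, *Atf6*-/- replicate 5 was the lowest of all 10 libraries, and *Atf6*+/+ replicate 4 lay above *Atf6*-/- replicate 2. After rescaling between libraries, 3 controls lay below every knockout library. The log2 fold change of *Sec23a* was 0.19 (standard error 0.07, unadjusted p = 0.0204, adjusted p = 0.362 from limma). Its paralogue *Sec23b* (NCBI gene 27054) was at 24.19, 23.59, 25.51, 29.58 and 23.71 FPKM in *Atf6*+/+ and at 30.19, 29.3, 28.05, 28.76 and 24.29 FPKM in *Atf6*-/- retinas. In the deposited FPKM the same libraries made the groups overlap, *Atf6*+/+ replicate 4 at the high end and *Atf6*-/- replicate 5 at the low end. After rescaling, 4 controls lay below every knockout library. The log2 fold change was 0.17 (standard error 0.07, unadjusted p = 0.0248, adjusted p = 0.364 from limma). *Sec24a* (NCBI gene 77371) was at 4.67, 4.98, 4.39, 4.83 and 4.59 FPKM in *Atf6*+/+ and at 5.34, 5.06, 5.52, 5.24 and 5.05 FPKM in *Atf6*-/- retinas. All knockout libraries lay above all controls in the deposited FPKM, but not after rescaling between libraries. Its log2 fold change was 0.17 (standard error 0.07, unadjusted p = 0.0238, adjusted p = 0.364 from limma).

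The remaining coat genes went both ways, with *Sar1b*, which encodes the other SAR1 GTPase, at 0.14, *Sec13* at 0.09 and *Sar1a* at 0.05, and *Sec24b*, *Sec31a*, *Sec24c* and *Sec24d* at -0.10, -0.09, -0.05 and -0.02. Of the cargo receptors, *Mcfd2*, the partner of the lectin *Lman1* in the export of clotting factors, was at 0.11 (standard error 0.06, unadjusted p = 0.0954 from limma) and *Lman1* at 0.08. The lectin *Lman2* was at -0.03 and *Surf4*, a receptor for soluble cargo, at 0.00.

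**Figure D3:**
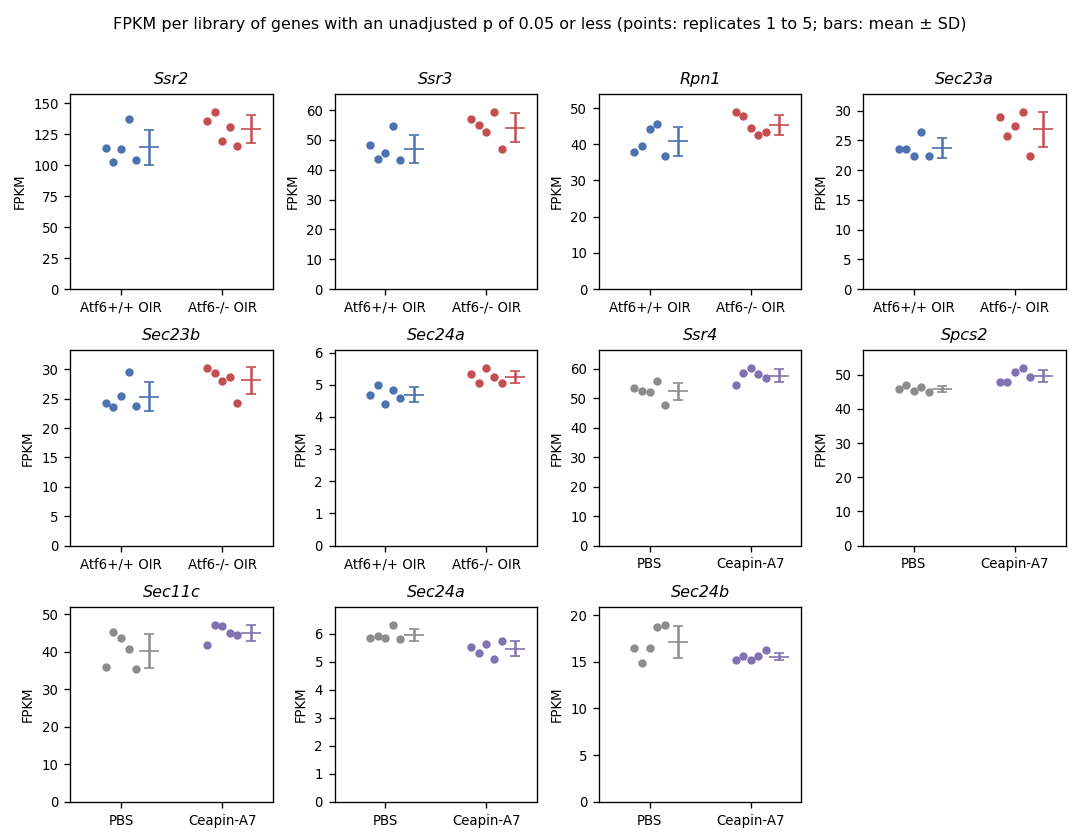
FPKM in each library of the 6 genes with an unadjusted p of 0.05 or less in OIR and the 5 with such a p after Ceapin-A7, with the mean and SD of 5 libraries beside the points. In these deposited values, not rescaled between libraries, *Atf6*+/+ replicate 4 and *Atf6*-/- replicate 5 bring the OIR groups together for *Ssr3*, *Sec23a* and *Sec23b*. *Spcs2* has all Ceapin-A7 libraries above all PBS libraries.

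How many genes were called in OIR depended on which libraries were used. Without *Atf6*+/+ replicate 4, 17 of the 45 genes had an unadjusted p of 0.05 or less (16 higher, 1 lower), where 24% of all genes did. Without *Atf6*-/- replicate 5 there were 15 (13 higher, 2 lower), where 25.5% of all genes did. Without *Atf6*-/- replicate 1 there were 2, where 8.56% of all genes were called, and without *Atf6*+/+ replicate 5 there were 3, where 11.0% were. Without both libraries of low weight, 25 of the 45 genes were called at the unadjusted threshold (20 higher, 5 lower), where 38.8% of all genes were, and 20 were called at an adjusted p under 0.05 (15 higher, 5 lower), where 24.9% of all genes were. Those libraries were chosen after the values were seen, because they lay farthest from their own groups, so the spread that remains is narrower by construction. With array weights, which keep all libraries and weight them by their spread, 12 of the 45 genes had an adjusted p under 0.05 (10 higher, 2 lower), where 17.6% of all genes did, and 23 had an unadjusted p of 0.05 or less, where 36.6% of all genes did.

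The fold changes in OIR also moved with base composition. Over all genes tested, the log2 fold change had a Spearman correlation of -0.464 with the GC content of the transcript, and over the 45 genes it was -0.327 (a description across genes, which share their libraries). The 45 genes had a median GC content of 49.0% and all genes tested a median of 51.0%. After each library's trend with GC content was removed, 9 of the 45 genes had an unadjusted p of 0.05 or less (8 higher, 1 lower), where 10.6% of all genes did, their median log2 fold change was 0.05, and *Ssr3*, with a GC content of 39.8%, was no longer called (unadjusted p = 0.100 from limma). With array weights and the GC correction together, 0 of the 45 genes had an adjusted p under 0.05, where 0.171% of all genes did. Lens fibre markers moved most: of 11 tested, 9 had an unadjusted p of 0.05 or less and were lower in *Atf6*-/- retinas, 0 had an adjusted p under 0.05 (limma), and their median log2 fold change was -2.50. Of 10 retinal pigment epithelium markers, 6 were called higher at the unadjusted threshold, with a median of 0.80. These markers summed to 222 to 351 FPKM in *Atf6*+/+ and 294 to 535 FPKM in *Atf6*-/- libraries. Rod markers summed to 16653 to 19054 and 18023 to 20490 FPKM, and all 8 lay above 0, with a median of 0.10 and 2 called higher. Endothelial markers summed to 84 to 150 and 85 to 127 FPKM. Of these 8 markers, 7 lay below 0 and 1 above, with a median of -0.25 and 1 called lower. Medians were 0.07 for Muller glia, 0.08 for bipolar cell, -0.04 for ganglion cell and -0.10 for microglia and macrophage markers. The part of base composition and of cell makeup in these values was not tested. Leaving out lens and pigment epithelium genes left 6 of the 45 genes called. That step drops only the marker genes and keeps the values of the 45, so it cannot speak to cell makeup.

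**Figure D4:**
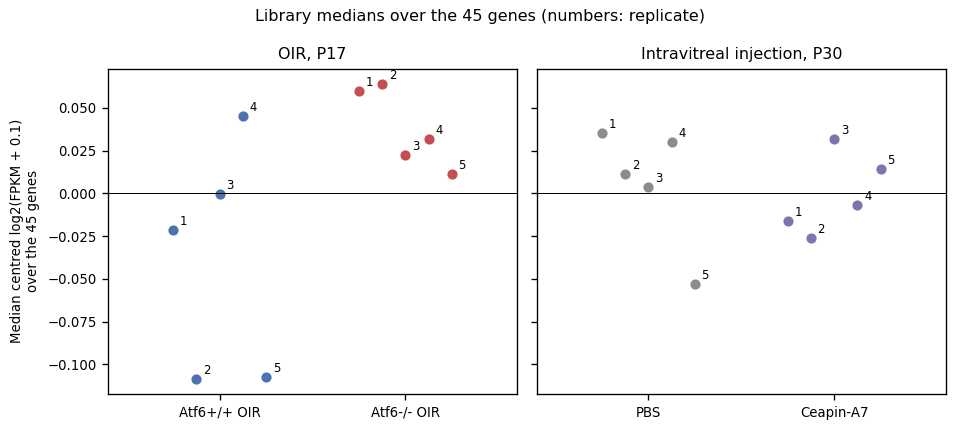
Median over the 45 genes of log2(FPKM + 0.1) after centring each gene on its experiment's mean, for each library, numbered by replicate. The *Atf6*+/+ libraries run from -0.11 to 0.05 and the *Atf6*-/- libraries from 0.01 to 0.06, with *Atf6*+/+ replicate 4 within the range of the knockouts.

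The library medians over the 45 genes show the same spread. They ran from -0.11 to 0.05 in *Atf6*+/+ and from 0.01 to 0.06 in *Atf6*-/- libraries on the log2 scale, so that the groups overlapped through *Atf6*+/+ replicate 4 alone. In the injected retinas they ran from -0.05 to 0.04 in PBS and from -0.03 to 0.03 in Ceapin-A7 libraries, and the lowest was PBS replicate 5.

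The second comparison asked what a single dose of Ceapin-A7 did to the same genes in retinas without OIR. With all libraries weighted alike, 23 of the 45 genes lay above 0 and 22 below, where 50.3% of all genes tested lay above 0 and 49.7% below, and their median log2 fold change was 0.00, as it was over all 15408 genes tested. The split was 17 above and 28 below with array weights, and 15 above and 30 below, with a median of -0.025, without PBS replicate 5, whose array weight was the lowest of the injected libraries, 0.415. The values ran from -0.13 for *Sec24b* to 0.17 for *Sec11c*. At an adjusted p under 0.05 (limma, Benjamini-Hochberg) 0 of the 45 genes were called, with a lowest adjusted p of 0.472, and 0% of all genes were called. With the unadjusted threshold, 5 of the 45 genes, 11.1%, were called, 3 higher and 2 lower, where 10.4% of all genes were called, 5.04% higher and 5.31% lower. In 1 gene, *Spcs2*, the groups did not overlap, where 1.47% of all genes had no overlap.

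The 3 genes with higher values after Ceapin-A7 belong to TRAP and to signal peptidase. *Spcs2* (NCBI gene 66624), a signal peptidase subunit, was at 45.74, 47.14, 45.35, 46.39 and 45.07 FPKM in PBS replicates 1 to 5 and at 47.92, 47.76, 50.86, 51.96 and 49.48 FPKM in Ceapin-A7 replicates 1 to 5. All treated libraries lay above all controls. Between the groups, the log2 fold change was 0.11 (standard error 0.03, unadjusted p = 0.0084, adjusted p = 0.472 from limma). *Ssr4* (NCBI gene 20832), the delta subunit of TRAP, was at 53.44, 52.33, 52.23, 56 and 47.78 FPKM in PBS and at 54.4, 58.65, 60.23, 58.32 and 57 FPKM in Ceapin-A7 retinas. The groups overlapped only through PBS replicate 4 and Ceapin-A7 replicate 1. This gave a log2 fold change of 0.14 (standard error 0.05, unadjusted p = 0.0110, adjusted p = 0.472 from limma). *Sec11c* (NCBI gene 66286) was at 35.94, 45.29, 43.83, 40.69 and 35.36 FPKM in PBS and at 41.85, 47.32, 46.89, 45.05 and 44.43 FPKM in Ceapin-A7 retinas. PBS replicates 1 and 5 were the lowest of all 10 libraries, and PBS replicates 2 and 3 lay within the treated range. The log2 fold change was 0.17 (standard error 0.08, unadjusted p = 0.0454, adjusted p = 0.479 from limma). The unadjusted p of *Sec11c* was above 0.05 in 12 of 25 alternative settings.

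The 2 genes with lower values both encode SEC24 cargo adaptors of the COPII coat. *Sec24b* (NCBI gene 99683) was at 16.49, 14.91, 16.48, 18.74 and 18.98 FPKM in PBS and at 15.15, 15.65, 15.21, 15.57 and 16.21 FPKM in Ceapin-A7 retinas. In the deposited FPKM, PBS replicates 4 and 5, the libraries with the lowest rod marker sums, were the highest and PBS replicate 2 the lowest of all 10. After rescaling, 1 Ceapin-A7 library lay below all controls. The log2 fold change was -0.13 (standard error 0.06, unadjusted p = 0.0383, adjusted p = 0.472 from limma), and the unadjusted p was 0.0961 without PBS replicate 4 and 0.0898 without PBS replicate 5. *Sec24a* was at 5.83, 5.92, 5.83, 6.32 and 5.8 FPKM in PBS and at 5.53, 5.3, 5.64, 5.1 and 5.73 FPKM in Ceapin-A7 retinas. All treated libraries lay below all controls in the deposited FPKM, but not after rescaling. Its log2 fold change was -0.12 (standard error 0.05, unadjusted p = 0.0478, adjusted p = 0.480 from limma), and the unadjusted p was 0.103 without PBS replicate 4. With *Sec24a* the unadjusted p was above 0.05 in 12 of 25 alternative settings, among them array weights, quantile normalization and the replicate block (unadjusted p = 0.116 from limma), and with *Sec24b* in 10 of 25. PBS replicates 4 and 5 also had the lowest Muller glia marker sums, 1217 and 1415 FPKM, where the Ceapin-A7 libraries had 1878 to 2156 FPKM. All 12 lens fibre markers lay above 0 after Ceapin-A7, with a median log2 fold change of 1.04, and none was called (0 of 12 at the unadjusted threshold of limma). The part of lens and other cells in the values of the 45 genes was not tested. The same count, 5, was called when lens and pigment epithelium genes were left out. Here too only the marker genes were dropped, so this cannot speak to cell makeup.

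Among the other genes, the largest difference in each step was 0.02 for *Srp72*, an SRP subunit, -0.10 for *Stt3a* (standard error 0.07, unadjusted p = 0.162 from limma), -0.09 for *Ganab* (standard error 0.05, unadjusted p = 0.0941 from limma) and -0.07 for *Lman1*. *Sec61b* was at 0.14, *Sar1b* at 0.12 and *Sec13* at 0.11, and *Sec24d* was at -0.12. The 5 genes of glucose trimming and the calnexin cycle had a median of -0.06, with 4 below 0.

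Set side by side, 20 of the 45 genes lay above 0 in both experiments and 8 below 0 in both, 14 were above 0 in OIR and below after Ceapin-A7, and 3 the other way. Across the 45 genes the log2 fold changes had a Pearson correlation of 0.435 and a Spearman correlation of 0.462. The experiments share no libraries, but all points within an experiment come from the same 10 libraries. Neither the correlations nor the counts by direction were taken over all genes, so they cannot be called particular to this route. *Sec24a* was the 1 gene with an unadjusted p of 0.05 or less in both, at 0.17 in OIR and -0.12 after Ceapin-A7. The difference between these values was not tested, and the share of all genes called in both was not taken. Neither call of *Sec24a* was stable: in OIR its unadjusted p was above 0.05 in 5 of 26 alternative settings, and after Ceapin-A7 in 12 of 25. A panel of 118 genes regulated by the unfolded protein response (UPR) held 14 of the 45 genes. Their median was 0.08 in OIR (10 above 0, 3 called higher) and -0.02 after Ceapin-A7 (6 above 0, 1 called higher). The 31 genes outside the panel had medians of 0.08 in OIR (24 above 0, 3 called higher) and 0.00 after Ceapin-A7 (17 above 0, 2 called higher and 2 lower). Of all genes, 6.94% were called higher in OIR, and 5.04% higher and 5.31% lower after Ceapin-A7.

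Several steps are served by paralogues, and FPKM is per length, so their shares within a library could be set side by side. *Stt3b* exceeded *Stt3a* in every group, with *Stt3a* at 19.8% ± 0.318 of their sum in *Atf6*+/+ OIR, 20.4% ± 1.34 in *Atf6*-/- OIR, 24.6% ± 1.67 in PBS and 23.8% ± 0.375 in Ceapin-A7 retinas (SD, n = 5 here and below). *Sec11a*, the other catalytic subunit of signal peptidase, held 47.1% ± 1.88, 45.8% ± 3.00, 40.1% ± 2.92 and 35.8% ± 2.52 in the same order, so that *Sec11c* was the more abundant in each group. The shares of *Sec61a1* in the SEC61 alpha pair were 61.4%, 59.3%, 59.0% and 59.2%, and those of *Sec23a* in the SEC23 pair 48.4%, 48.8%, 53.0% and 53.5%. *Sar1a* held 52.1%, 50.6%, 55.7% and 54.0% of the SAR1 pair. Of the SEC24 family, *Sec24c* held the most, 53.1%, 52.8%, 58.7% and 60.0%, followed by *Sec24b* with 31.8%, 30.6%, 26.4% and 25.5%. *Sec24a* and *Sec24d* held the least, 8.21% and 6.91% in *Atf6*+/+ OIR and 8.95% and 5.55% in Ceapin-A7 retinas. Of the lectins, *Lman1* held between 66.1% and 69.3% of its sum with *Lman2* in all groups.

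**Figure D5:**
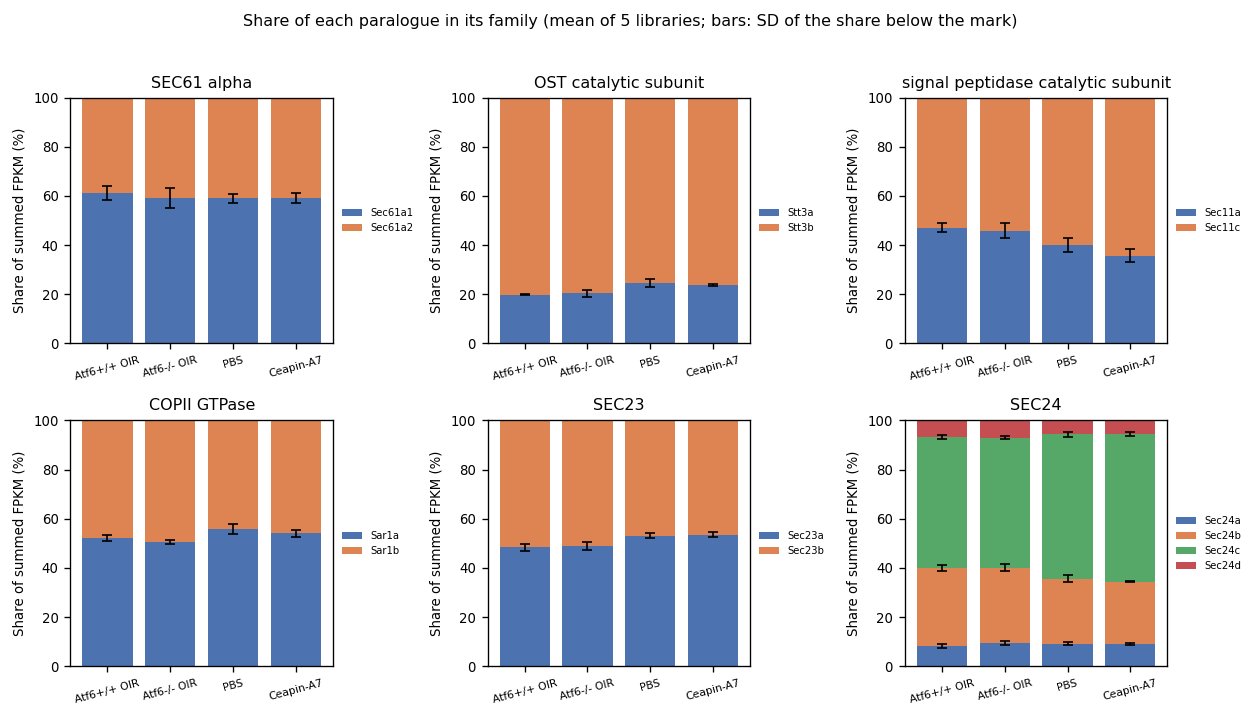
Mean share of each paralogue in the summed FPKM of its family in the 4 groups (bars from 0 to 100%), with the SD of 5 libraries drawn at the top of each share but the last. *Stt3b* and *Sec24c* are the major members in all groups, and the mean share of *Sec11a* is below 50% in every group.

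Other genes of the same pathway, 99 in all with 95 in the tables, were described alongside. In OIR 13 of the 95, 13.7%, had an unadjusted p of 0.05 or less, close to the 12.7% of all genes, and all 13 were higher in *Atf6*-/- retinas, with 70 of 95 above 0 and a median of 0.05, and at an adjusted p under 0.05 none was called (limma, 0 of 95). *Tmed5*, a p24 cargo receptor, had the largest value, 0.52 (standard error 0.10, unadjusted p = 2.84e-04, adjusted p = 0.223 from limma), at 5.53 to 7.11 FPKM in *Atf6*+/+ and 7.71 to 11.08 FPKM in *Atf6*-/- retinas without overlap. *Tmed4*, another p24 protein, was at 0.18 and *Trappc3*, a subunit of the vesicle tether TRAPP, at 0.16. *Alg10b*, which adds the last glucose to the glycan precursor, was at 0.24 and *Srp54c* at 0.17. For *Tmed4*, *Trappc3*, *Alg10b* and *Srp54c* the adjusted p lay between 0.358 and 0.362 (limma). With the GC correction, *Alg10b* and *Srp54c* were no longer called at the unadjusted threshold. Over the alternative settings *Alg10b* ran from 0.13 to 0.30 and *Srp54c* from 0.03 to 0.23, and *Srp54c* lost its call in 7 of 26. After Ceapin-A7 7 of the 95 were called higher and 4 lower at the unadjusted threshold, together 11.6% against 10.4% of all genes, with a median of 0.02. *Emc2* and *Emc4*, subunits of the ER membrane protein complex, were at 0.19 and 0.21, *Tmem258*, a small oligosaccharyltransferase subunit, at 0.18 and *Alg12*, a mannosyltransferase of the glycan precursor, at -0.15. *Sec31b*, the minor paralogue of *Sec31a*, was at -0.49, with 0.53 to 0.74 FPKM in PBS and 0.34 to 0.49 FPKM in Ceapin-A7 retinas. At such low values its log2 fold change ran from -0.58 to -0.20 over the alternative settings. These 5 genes had an adjusted p of 0.472 each, and 0 of the 95 had an adjusted p under 0.05 (limma).

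The promoters of these genes were searched for the elements through which ATF6 and XBP1 act. RefSeq promoters on GRCm38.p6 (250 bases before to 50 bases after the start) were found for 38 of the 45 genes. On both strands, the ER stress response element ERSE was read as CCAAT, 9 free bases and CCACG. It was found in 1 of the 38 genes (2.63%), *Canx*, and in 0.119% of all 32851 promoters. ERSE-II, read as ATTGG, 1 free base and CCACG, was found in 0 of the 38 genes and in 0.0365% of all promoters. The core of the unfolded protein response element UPRE was read as TGACGTGG or TGACGTGA. It was found in 3 of the 38 genes (7.89%), *Sec24d*, *Mogs* and *Sec23a*, and in 1.12% of all promoters. The shares of the 38 count genes, which had 41 promoters, and the others count promoters. The difference between these shares was not tested. A match describes the letters in the window and not a bound site. The windows around the matches upstream of the start, 100 bases each on the strand of the gene, are shown with the matched element in capitals: *Canx* at chr11:50325759-50325858 (minus strand), *Sec24d* at chr3:123267396-123267495 and *Mogs* at chr6:83115406-83115505 (plus strand).
Canx: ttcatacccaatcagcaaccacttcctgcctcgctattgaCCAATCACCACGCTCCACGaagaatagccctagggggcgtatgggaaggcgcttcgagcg
Sec24d: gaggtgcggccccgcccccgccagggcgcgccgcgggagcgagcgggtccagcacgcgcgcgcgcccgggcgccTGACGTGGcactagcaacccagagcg
Mogs: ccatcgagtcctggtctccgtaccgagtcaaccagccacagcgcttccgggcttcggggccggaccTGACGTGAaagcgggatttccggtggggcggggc

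The genes with these matches did not share a direction. *Canx* had log2 fold changes of 0.00 in OIR and -0.06 after Ceapin-A7, *Sec24d* -0.02 and -0.12, *Mogs* -0.15 and -0.07, and *Sec23a*, whose match lies 6 to 13 bases after the start, 0.19 and 0.00. Of these, only *Sec23a* in OIR had an unadjusted p of 0.05 or less.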

How the data were processed

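Stranded mRNA libraries of 20 mouse retinas were sequenced by the authors, who used HISAT2 (v2.0.4) for alignment to GRCm39, RSEM (v1.2.18) for quantification and DESeq2 (v1.4.5) for their own comparisons, and deposited FPKM per gene. The counts behind the deposited FPKM were not used here, so no counting interval is given, and relative depth was taken from the size of the steps in low FPKM. Groups came from the sample labels.

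Each experiment was fitted alone. A median-of-ratios factor (0.946 to 1.04) was divided out of each library's FPKM and 0.1 was added. The log2 values were then compared by limma 3.58.1 under R 4.3.3 (moderated test, eBayes, trend on), for genes averaging more than 0.1 FPKM. Fold changes are on that log2 scale, which understates changes of low genes. The Benjamini-Hochberg adjustment covered every gene in the fit. The fits were tested on simulated data.

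The genes and lists were chosen with earlier results of these data known, so no list was tested. The UPR panel was read from the supplement of the paper. GC content was the median over a gene's GENCODE transcripts on GRCm38, matched by symbol. Promoters came from RefSeq on GRCm38.p6, also by symbol. GC content was found for 97.0% and 97.1% of the genes tested. Genes named with values are those with an unadjusted p of 0.05 or less, the largest change in each step, the 3 highest and 3 lowest levels, the paralogues and, of the other pathway genes, the 5 smallest p per experiment. Other genes of the route were named for completeness after their values were seen. The alternatives were other pseudocounts (1 and 0.01), filters (none, and a mean above 1 FPKM), scalings (FPKM as deposited, TPM, quantile), limma without trend or with array weights, all 20 libraries, a replicate block, a GC correction (lowess span 0.3), omission of lens and pigment epithelium genes and omission of each library. Array weights with the GC correction, and omission of both OIR libraries of lowest weight, were added after seeing the data.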

Additional observations from a re-analysis of the deposited data

Results flagged for a closer look

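In 9 of 116 sets of 5 libraries (29 named genes in 4 groups), 1 library lay apart from the other libraries of its group by more than 0.71 of the group's range, Dixon's limit for 5 samples; chance gives about 5% of sets. Of these 9, 5 were *Atf6*+/+ OIR replicate 4. That library was the highest of its group for *Spcs1* at 50.48 FPKM (the others 36.16 to 37.77), for *Spcs2* at 45.53 FPKM (the others 36.61 to 38.47), for *Sar1b* at 46.58 FPKM (the others 33.29 to 36.51) and for *Sec23a* at 26.47 FPKM (the others 22.4 to 23.54). It was the lowest for *Sec24c* at 26.91 FPKM (the others 31.3 to 31.51). *Atf6*-/- OIR replicate 5 was the lowest of its group for *Canx* at 62.23 FPKM (the others 68.68 to 70.92). In the injected retinas, PBS replicate 5 was the lowest for *Rpn1* at 39.54 FPKM (the others 42.34 to 43.18), PBS replicate 4 the highest for *Sec24a* at 6.32 FPKM (the others 5.8 to 5.92), and Ceapin-A7 replicate 4 the highest for *Sar1b* at 62.76 FPKM (the others 56.83 to 58.15).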

How the results depend on the processing

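No called gene changed direction under any alternative. The OIR split of the 45 genes, 34 above 0 and 11 below, became 30 and 15 with TPM and with the GC correction. It ran from 30 and 15 (without *Atf6*+/+ replicate 5) to 38 and 7 (without *Atf6*+/+ replicate 3) as each library was left out. In OIR the count of the 45 genes at an unadjusted p of 0.05 or less, 6, became 2 with FPKM as deposited (12.1% of all genes called), 3 with TPM (11.7%), 10 with all 20 libraries (17.5%), 23 with array weights (18 higher, 5 lower; 36.6%), 11 with array weights and the GC correction (9 higher, 2 lower; 24.7%) and 25 without both libraries of lowest weight (20 higher, 5 lower; 38.8%), and it ran from 2 (8.56%) to 17 (24%) as each library was left out. The count at an adjusted p under 0.05, 0, became 12 with array weights (17.6% of all genes) and 20 without both libraries of lowest weight (24.9%), which also raised the median log2 fold change from 0.08 to 0.14. After Ceapin-A7 the count at the unadjusted threshold, 5, became 3 in limma without trend (9.27% of all genes) and 2 with all 20 libraries (8.69%), and it ran from 2 (without PBS replicate 4, 6.21%, or Ceapin-A7 replicate 4, 8.52%) to 7 (without PBS replicate 2, 16.4%) as each library was left out. TPM moved the median over the 45 genes to -0.038, as it moved the median over all genes to -0.037, left 10 genes above 0 and 35 below, and gave a summed level of 1909 in PBS retinas. Replicate numbers did not pair the samples: same-numbered libraries had correlations of their deviations from -0.258 to 0.210 in OIR and from -0.217 to 0.310 in the injected retinas. With the replicate number as a block, 4 of the 45 genes were called in OIR (12.5% of all genes) and 4 after Ceapin-A7 (10.4%). The 6 genes called in OIR kept an unadjusted p of 0.05 or less in 127 of 156 alternative values, and the 5 called after Ceapin-A7 in 89 of 125. By gene, the OIR call was lost in 6 of 26 settings each for *Sec23a* and *Sec23b*. It was lost in 5 each for *Ssr2* and *Sec24a*, in 4 for *Rpn1* and in 3 for *Ssr3*. The cause of these shifts was not tested. With standard errors of 0.05 to 0.14 in OIR and 0.03 to 0.12 after Ceapin-A7 on the log2 scale, differences of the size seen here could not be told from 0 after adjustment with all libraries weighted alike, and deposited values of 2 decimals limit the lowest genes.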
